A study of Mus musculus with 2 samples.

Results

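The Myc, Max and Mxd network was followed through the cells of IκBα WT and IκBα KO fetal livers by means of 10 genes, chosen by name among the 32285 genes counted. They were the Myc genes (Myc, Mycn, Mycl), their partner Max, the repressor genes Mxd1, Mxd3, Mxd4, Mxi1 and Mnt, and the Max-like gene Mlx. E14.5 fetal livers of the CD1 strain were depleted of lineage-positive cells, and the LSK population (lineage-negative, SCA1-positive, cKIT-positive) was sorted for droplet-based 3′ single-cell RNA sequencing. The LSK cells of 2 WT embryos made up one library, and those of 3 embryos with a germline targeted knockout of Nfkbia, the gene of IκBα, the other, so that single embryos cannot be told apart. Embryos came from matings of heterozygous mice per the methods of the study. The sample titles name LT-HSC, but the cell type label and the protocol name LSK. There was 1 library per genotype, so that no test was possible. The intervals given are 95% intervals for counting error alone, and they leave out any variation among embryos or libraries.

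MYC proteins bind DNA only after pairing with MAX, and the pair activates genes of ribosome production, metabolism and growth from a short DNA motif, the E-box. The MXD proteins and MNT compete for the same partner and the same motif, but bring the SIN3 and histone deacetylase corepressor to the gene. MLX, which resembles MAX, pairs with glucose-sensing MONDO proteins and with some of the MXD proteins. In blood cells, Mycn is known from fetal and adult stem cells, Myc from dividing progenitors, and a replacement of MYC by MXD proteins from maturing red cells and granulocytes.

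The regions just before the gene starts of 3 members are shown, since these members had the widest ranges over the cell groups described below. RefSeq promoter sequences (build GRCm38.p6) were found for 9 of the 10 members, and the 250 bases before each start were searched on both strands. The motifs were the E-box CACGTG, the GATA motif (AGATAA or TGATAA) and an E2F motif (TTTGGCGC, TTTCCCGC, TTTCGCGC or TTTGCCGC, which can overlap one another). Of 32851 promoter windows of the same length, 6.02% held the E-box, 16.6% the GATA motif and 1.86% the E2F motif. Matches are printed in capitals in an otherwise lower-case 5′ to 3′ sequence of the gene's strand, and each stretch ends at the base before the annotated gene start. All 3 genes are protein-coding and lie on the minus strand. The stretch of Mycn lies at chr12:12941915-12942086 and that of Mxd3 at chr13:55329824-55329981. The stretch of Mxd4 lies at chr5:34187721-34187960.
Mycn: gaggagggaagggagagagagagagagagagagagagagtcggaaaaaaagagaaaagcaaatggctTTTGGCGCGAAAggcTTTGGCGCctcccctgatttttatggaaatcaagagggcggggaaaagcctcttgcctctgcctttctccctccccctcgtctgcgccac
Mxd3: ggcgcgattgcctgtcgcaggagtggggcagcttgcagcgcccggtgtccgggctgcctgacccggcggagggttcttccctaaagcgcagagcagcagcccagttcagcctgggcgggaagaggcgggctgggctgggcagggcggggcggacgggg
Mxd4: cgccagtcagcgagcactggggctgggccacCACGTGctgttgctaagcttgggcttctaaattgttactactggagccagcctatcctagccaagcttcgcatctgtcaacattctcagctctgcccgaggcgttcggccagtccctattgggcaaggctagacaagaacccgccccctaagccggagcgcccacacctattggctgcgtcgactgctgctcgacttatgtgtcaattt
Mycn had 3 matches to the E2F motif, 1 pair of them overlapping. Mxd4, Mnt and Mlx each had 1 E-box. The letters of these motifs were not found in the windows of Mxd1, Mxd3, Max, Mycl and Mxi1, and no member had the GATA letters. A match is a description of the sequence, and binding was not measured here.

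The libraries differed in depth and in other ways that touch every value. The filter left 3458 WT cells and 4417 KO cells, and their median depths were 28065 and 19560 UMIs (a UMI marks a captured RNA molecule). Nfkbia had 1478 UMIs in WT and 7 UMIs in KO. The share of cells with Xist UMIs but no Y-linked UMIs was 95.9% in WT against 69.4% in KO, so that the libraries also differed in the sex of the embryos. Restricting both to such cells moved 4 values and left 162 within counting error. The libraries shared 7 cell barcodes, and 1 cluster held 102 KO cells and 0 WT cells. Leaving out that cluster moved 1 value and left 165 within counting error.

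Cells were sorted into 13 ranges, called gates here, by the UMIs of fixed marker genes per 10000 UMIs of the cell, and the rest stayed outside all gates. A gate is a range of a score and not a type, and the cuts were set after the scores had been seen. The stem gate (Hlf, Mecom, Mllt3, Fgd5, Procr and Pdzk1ip1) held 442 WT and 425 KO cells, of which 75 WT and 79 KO cells lay within 1.25 times the cut. Cells between 0.8 and 1 times a cut, 162 in WT and 203 in KO, were outside all gates. Median scores of most other classes in the stem gate were at or below 3.61 marker UMIs per 10000, and the erythroblast score, which sums globin genes, had medians of 19.2 in WT and 16.6 in KO against 2376 and 2435 in the erythroblast gate. Many cells did not carry the transcripts of an LSK sort. Kit, which encodes cKIT, had 124 CPM (UMIs per 1000000 UMIs of the gate) in WT and 114 CPM in KO in the stem gate, but 5.89 and 8.72 CPM in the erythroblast gate. Ly6a, which encodes SCA1, had 29.6 and 39.9 CPM in the stem gate and 1.04 and 1.20 CPM in the erythroblast gate. The labelled LSK identity was thus not seen in the RNA of the erythroblast gate, which held 578 WT and 936 KO cells. Low Ly6a was not limited to that gate. It was at 1.83 and 2.52 CPM in the early erythroid gate and at 0.629 and 0.579 CPM in the late erythroid gate (764 WT and 875 KO cells). In the globin-intermediate gate, Ly6a was at 2.54 and 1.02 CPM and Kit at 12.2 and 19.4 CPM. Kit was higher in the early and late erythroid gates than in the globin-intermediate gate. Outside the erythroid gates, Ly6a was also low in the early neutrophil (2.65 and 2.16 CPM) and hepatocyte gates (1.10 and 1.22 CPM). In the megakaryocyte gate it was at 0 and 1.30 CPM, but in the endothelial gate at 38.7 and 20.9 CPM.

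The network genes divided the gates between them, and the pattern was alike in both libraries. Levels below are CPM, in WT and then in KO. Since each UMI counts 1 molecule at its 3′ end, CPM compares captured molecules between genes without a length term, but capture can differ between genes. Mycn was highest in the stem gate (92.8 and 89.3 CPM), Myc in the early neutrophil gate (126 and 112 CPM), and Mxd4 in the endothelial gate (135 and 124 CPM). Mxd1 and Mxd3 were highest in the erythroblast gate, and Mxi1 in the late neutrophil gate. From the highest to the lowest gate by the mean of both libraries, Mycn spanned 48.4-fold, Mxd4 32.4-fold, Mxd3 10.1-fold, Myc 6.63-fold and Mxd1 5.34-fold. Mnt spanned 4.399-fold and Mxi1 4.25-fold. Max and Mlx, the partners of the others, had the narrowest ranges, with 2.17-fold and 2.10-fold. When the 14 groups of cells were ordered by level, the libraries of neighbouring groups overlapped in many cases for every member. Those that did not overlap were at most 7 of 13 (Myc and Mxd4) and as few as 2 of 13 (Mycl). This count was not made over all genes, so that it only limits how far the order can be read.

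**Figure D1:**
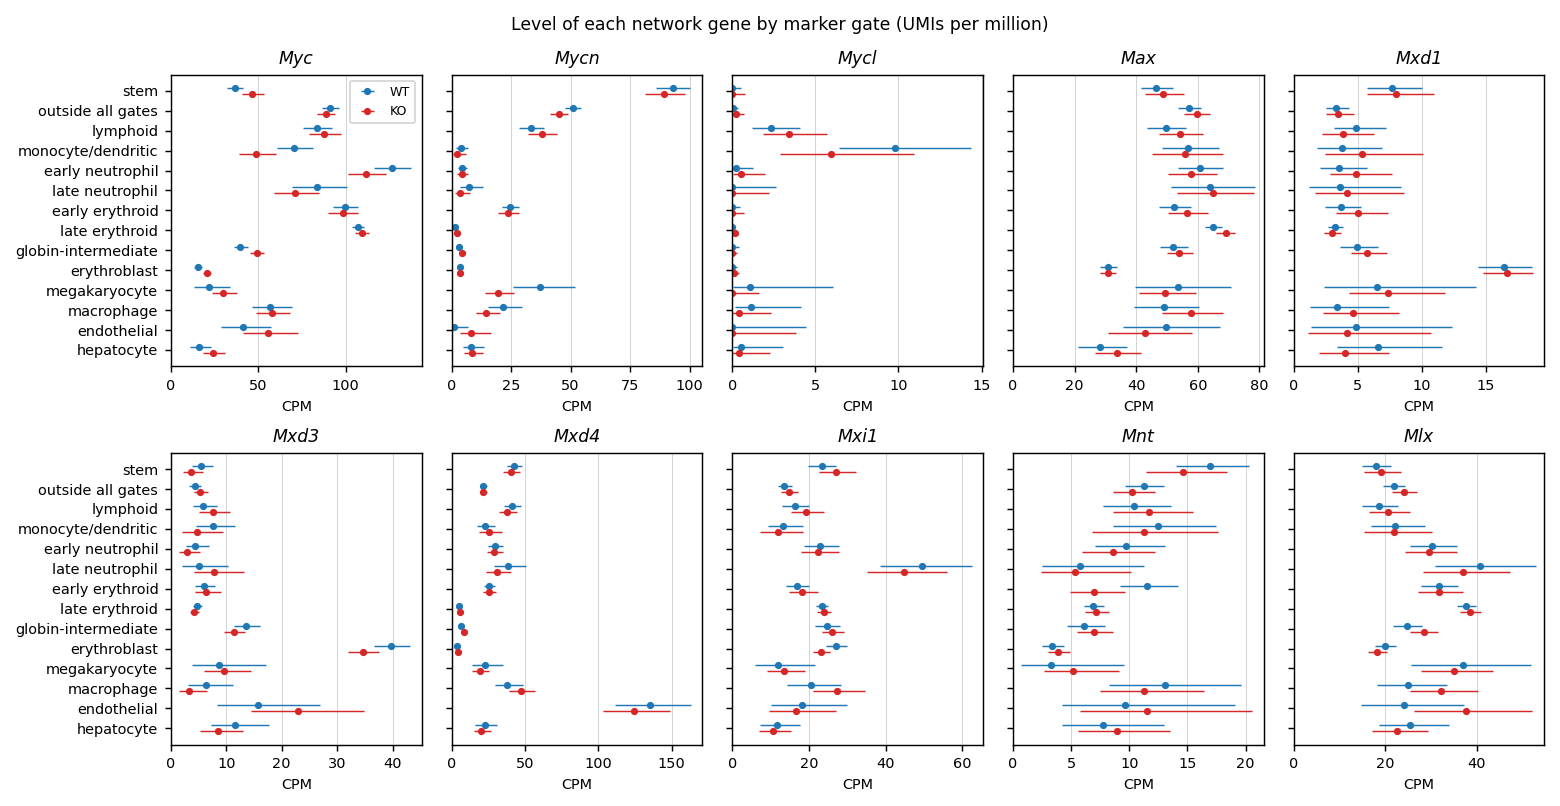
Level of each network gene (x axis, CPM) in 13 marker gates and in the cells outside all gates (y axis). Points are the WT (blue) and KO (red) libraries and bars are exact 95% Poisson intervals; Mycn is highest in the stem gate and Mxd1 and Mxd3 in the erythroblast gate in both libraries.

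Myc and Mycn, which encode proteins of like function, had their highest levels in different gates. Both were counted in the cells outside all gates and in the lymphoid gate, and both were low in the erythroblast gate. Mycn took 642 of 894 Myc and Mycn UMIs in the stem gate of WT and 434 of 660 in KO. This gave a Mycn share of 71.8% (68.7 to 74.7, exact binomial interval) in WT and 65.8% (62.0 to 69.4) in KO, so that Mycn was the main Myc gene by captured molecules there in both libraries. The share was 35.8% in WT and 33.6% in KO among cells outside all gates, 28.5% and 30.2% in the lymphoid gate, and 19.8% and 19.4% in the early erythroid gate. In the early neutrophil gate it was 3.22% and 3.72%. The late erythroid gate (Klf1, Car1, Epor and others) had the lowest share, with 1.498% (1.14 to 1.94) in WT and 1.92% (1.46 to 2.47) in KO. There Mycn was at 1.63 and 2.13 CPM while Myc reached 107 and 109 CPM. Without the cells that Scrublet called as doublets, the share was 0.287% in WT and 0.829% in KO, and with classes from clusters it was 3.51% and 4.27%. Against the stem gate, Mycn was 56.9-fold lower in WT and 41.9-fold lower in KO, whereas Myc was 2.94-fold and 2.35-fold higher.

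**Figure D2:**
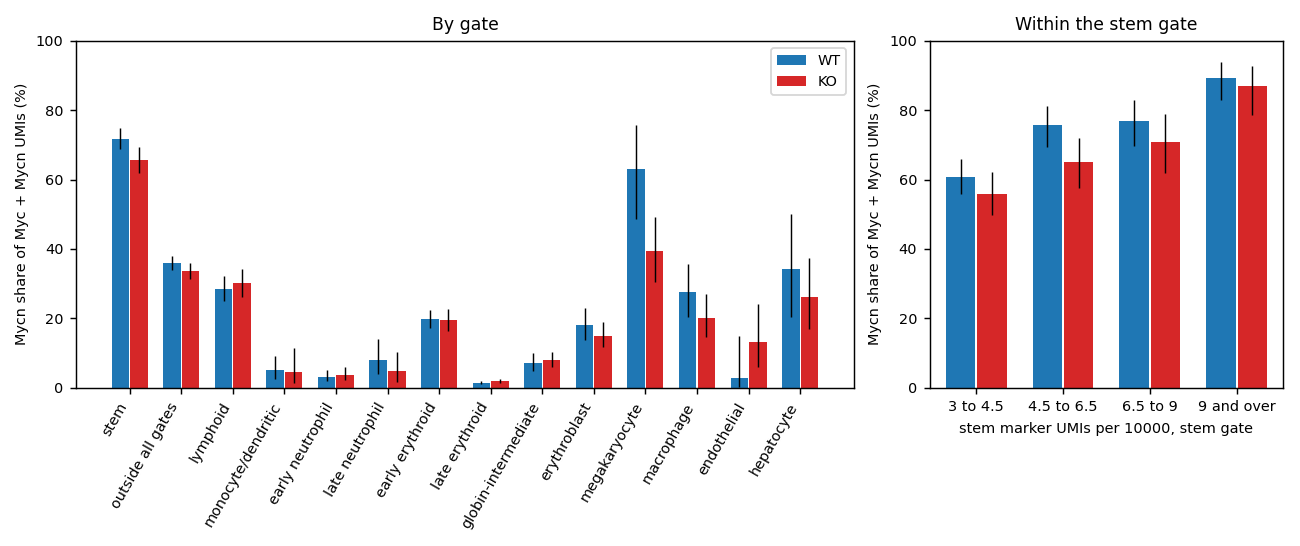
Mycn share of all Myc and Mycn UMIs (y axis, percent) by gate (left) and by the stem marker score within the stem gate (right). Bars are the WT (blue) and KO (red) libraries with exact 95% binomial intervals; the share is 71.8% in WT and 65.8% in KO in the stem gate and under 2% in the late erythroid gate.

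Within the stem gate the balance of both genes also differed with the marker score. In WT, the level of Myc was 57.2 CPM in cells with a score of 3 to 4.5, at 27.5 CPM from 4.5 to 6.5, at 29.4 CPM from 6.5 to 9 and at 13.1 CPM from 9 upwards. For KO the levels were 58.1, 46.5, 41.6 and 18.9 CPM in the same order. Mycn did not follow that decline. It was at 89.0, 85.7, 97.4 and 108 CPM in WT and at 73.8, 86.4, 102 and 125 CPM in KO. The Mycn share therefore went from 60.9% (55.7 to 65.8) to 89.2% (82.8 to 93.8) in WT and from 55.9% (49.7 to 62.1) to 86.9% (78.6 to 92.8) in KO. Mxd4, a repressor gene, was at 31.0 CPM in the lowest and 72.2 CPM in the highest range in WT, and at 35.4 and 53.8 CPM in KO. Mxi1 was at 17.6 and 36.6 CPM in WT and at 21.2 and 33.5 CPM in KO. The highest range held 101 WT and 83 KO cells.

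In the erythroid series, Myc was lower and a pair of Mxd genes was higher in the most mature cells. Mxd3, whose product is a repressor partner of MAX found mostly in dividing cells, was at 5.50 CPM (38 UMIs) in WT and at 3.70 CPM (18 UMIs) in KO in the stem gate. It stayed at 5.88 and 6.39 CPM in the early erythroid gate and at 4.75 and 4.16 CPM in the late erythroid gate. In the globin-intermediate gate it was at 13.5 and 11.4 CPM, and in the erythroblast gate at 39.8 CPM (574 UMIs) and 34.7 CPM (605 UMIs). Both libraries thus had the step after the late erythroid gate. Mxd1, which encodes MAD1, a repressor known from differentiating cells, was at 7.67 and 8.03 CPM in the stem gate, at 3.23 and 2.97 CPM in the late erythroid gate, and at 16.4 and 16.7 CPM in the erythroblast gate. Its level was thus lower in erythroid progenitors than in stem-marked cells before the higher level of the erythroblasts.

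A gene was called between gates where its CPM differed at least 2-fold the same way in both libraries. Of 9 members with enough UMIs, 2 were higher in the erythroblast gate than in the stem gate (Mxd1 and Mxd3), where 6.16% of all 9555 genes tested were higher. The log2 differences of Mxd3 were 2.86 (2.38 to 3.37) in WT and 3.23 (2.55 to 3.99) in KO, and those of Mxd1 were 1.10 (0.66 to 1.56) and 1.06 (0.57 to 1.58). Mxd1 was the member just inside the limit, and it fell out of the call when cells needed 2000 genes or when the gate cuts were 1.5 times higher. Of the same 9 members, 4 were lower (Myc, Mycn, Mxd4 and Mnt), but 42.4% of all genes were lower too. Haemoglobin genes took 24.8% of WT and 25.9% of KO UMIs in the erythroblast gate, which lowers the CPM of every other gene, and the median of all genes was at log2 -0.92 in WT and -0.87 in KO. Beside that shift, Mycn was at log2 -4.77 and -4.63, Mxd4 at -3.45 and -3.29, Mnt at -2.35 and -1.93, and Myc at -1.24 and -1.19. Over 11 alternatives the mean of Myc over both libraries lay between -2.39 and -0.42, and 3 or 4 members were lower. Myc was thus not 2-fold lower under every alternative. Max, at -0.59 and -0.66, turned to 0.17 with median-of-ratios scaling and to 0.06 in UMIs per cell (means of both libraries), so that no direction is given for it.

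The comparison with the early erythroid gate gave the same 2 higher members, with a background of 5.82%. Mxd1 was 4.48-fold higher in WT and 3.31-fold higher in KO, and Mxd3 6.76-fold and 5.43-fold. The lower members were 3, namely Myc, Mycn and Mxd4 (background 36.1%), with Myc 6.44-fold lower in WT and 4.81-fold lower in KO. Against the late erythroid gate, Mxd3 was 8.38-fold and 8.34-fold higher and Mxd1 5.08-fold and 5.63-fold higher (background 3.83%). Myc was 6.94-fold and 5.35-fold lower and Max 2.11-fold and 2.24-fold lower, where 30.1% of all genes were called lower. Counted per cell, without any scaling, Mxd3 had 0.217 UMIs in the late erythroid gate and 0.993 in the erythroblast gate of WT, and 0.131 and 0.646 in KO, although the median depth was lower in the erythroblasts. Myc had 4.91 and 0.386 UMIs per cell in WT and 3.45 and 0.380 in KO.

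The order went on within the erythroblast gate, when its cells were divided by the erythroblast marker score, which is mostly globin. From the lowest range (500 to 1000 per 10000) to the highest (4500 and over), Mxd3 was at 26.1, 29.8, 45.4, 53.7 and 59.7 CPM in WT. In KO it was at 20.8, 25.9, 37.6, 54.5 and 49.7 CPM. Mxd1 was at 7.25 and 31.5 CPM at the ends of the range in WT and at 11.05 and 28.7 CPM in KO. Myc was at 29.6 and 0.807 CPM in WT, the latter from 2 UMIs, and at 42.2 and 4.001 CPM in KO, the latter from 12 UMIs. Max went the same way as Myc, from 131 to 29 UMIs in WT and from 152 to 39 UMIs in KO. Per cell, where the growing globin share has no part, Mxd3 had 0.849 and 1.11 UMIs in WT and 0.546 and 0.703 in KO, so that the gain was smaller than in CPM. Mxd1 had 0.236 and 0.586 UMIs per cell in WT and 0.289 and 0.406 in KO. Myc had 0.962 and 0.0150 UMIs per cell in WT and 1.11 and 0.0566 in KO.

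**Figure D3:**
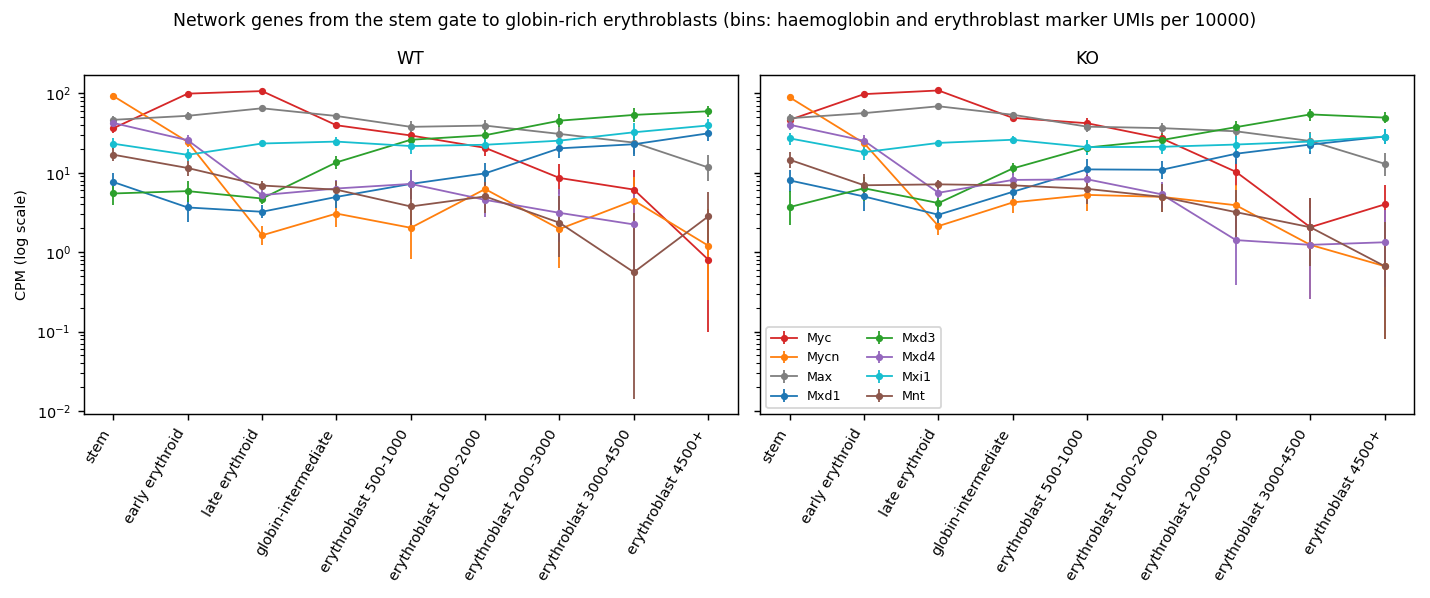
Level of 8 network genes (y axis, CPM, log scale) from the stem gate through the erythroid gates to erythroblasts divided by marker UMIs per 10000 (x axis), in WT (left) and KO (right). Points carry exact 95% Poisson intervals and levels of 0 are not drawn; Mxd3 passes Myc within the erythroblast gate in both libraries.

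The other repressor genes were not called higher in the erythroblast gate by CPM. Mxd4 was at 42.5 and 40.3 CPM in the stem gate, at 25.8 and 25.4 CPM in the early erythroid gate, and at 5.23 and 5.61 CPM in the late erythroid gate, so that most of its difference lay before globin appeared. In the most globin-rich erythroblasts it had 0 UMIs in WT (upper end of the exact interval 1.49 CPM) and 4 UMIs in KO. Mnt, which encodes the broadly expressed antagonist of MYC, was at 16.9 and 14.6 CPM in the stem gate and at 6.92 and 7.16 CPM in the late erythroid gate. Mxi1, another repressor gene of the family, stayed between 16.9 and 27.2 CPM from the stem gate through all 4 erythroid gates in both libraries. Its log2 difference from the early erythroid to the erythroblast gate was 0.68 in WT and 0.35 in KO. The median of all genes in that comparison was -0.81 and -0.76. Over 11 alternatives the mean of Mxi1 over both libraries lay between 0.33 and 1.23. The number of higher members was 2 or 3, so that the call of Mxi1 depended on the processing. From the lowest to the highest erythroblast range, Mxi1 went from 21.8 to 39.5 CPM in WT and from 21.1 to 28.7 CPM in KO. Per cell it had 0.708 and 0.737 UMIs in WT and 0.553 and 0.406 in KO. Between the late erythroid and the stem gate, 4 members were called lower (Mycn, Mxd1, Mxd4 and Mnt) against 21.2% of all genes, and 2 were called higher (Myc and Mlx) against 7.22%.

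Maturing neutrophils had another repressor profile. Mxi1 was at 23.0 and 22.4 CPM in the early neutrophil gate (Mpo, Elane and others) and at 49.5 CPM (69 UMIs) and 44.7 CPM (75 UMIs) in the late neutrophil gate (S100a8, Ngp and others). Its log2 difference was 1.10 (0.64 to 1.56) in WT and 1.00 (0.53 to 1.47) in KO, which left it just outside the 2-fold limit in KO. With 5 members tested, 0 were called higher and 0 lower in that comparison, where 1.22% and 0.76% of all genes were called. Mxd1 and Mxd3 were low in the late neutrophil gate, with 3.58 and 4.17 CPM for Mxd1 (5 and 7 UMIs) and 5.02 and 7.75 CPM for Mxd3 (7 and 13 UMIs). The gate held 42 WT and 65 KO cells, and both genes had too few UMIs to be tested against the early neutrophil gate. The log2 difference of Mxd3 was 0.18 (-1.30 to 1.48) in WT and 1.39 (0.11 to 2.69) in KO. Myc was at 126 and 112 CPM in the early and at 83.9 and 70.9 CPM in the late neutrophil gate. Against the stem gate, 0 of 8 members were higher (background 3.95%), and Mycn and Mnt were lower (background 13.1%).

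Max and Mlx carried the pairing arms of the network. Max lay between 42.8 and 69.0 CPM in 12 of the 14 groups of cells, and at 28.2 to 33.6 CPM in the erythroblast and hepatocyte gates. Mlx was at 17.9 and 19.1 CPM in the stem gate, at 37.8 and 38.6 CPM in the late erythroid gate and at 40.9 and 36.9 CPM in the late neutrophil gate. Mycl, the third Myc gene and one known from dendritic cells, was nearly absent elsewhere and had 26 UMIs (9.81 CPM) in WT and 10 UMIs (5.93 CPM) in KO in the monocyte and dendritic gate. It had 12 and 14 UMIs in the lymphoid gate and 0 UMIs in the stem gate of both libraries. In all, it was counted with 44 UMIs in WT and 37 UMIs in KO. Parts of Mxd3, Mxd4, Mxi1 and Mlx overlap genes on the opposite strand (Prelid1, Gm42846, Gm10197 and Psmc3ip among them), which the strand-specific kit keeps apart.

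The balance of the mRNAs was then summed up as the share of Mxd1, Mxd3, Mxd4, Mxi1 and Mnt in the UMIs of these genes and the 3 Myc genes. It is a sum of molecules and not a measure of protein. The share was 42.6% (40.1 to 45.1) in WT and 40.9% (38.0 to 43.8) in KO in the stem gate, and 28.6% and 28.2% in the late erythroid gate. It was 56.5% and 52.2% in the globin-intermediate gate and 82.8% (80.8 to 84.6) and 77.4% (75.4 to 79.3) in the erythroblast gate. In the most globin-rich erythroblasts it reached 98.5% in WT, with 331 repressor UMIs against 5 UMIs of the Myc genes, and 95.9% in KO, with 327 against 14. The endothelial gate was also high, with 81.3% and 73.8%, but by another gene. There Mxd4 made up 73.7% of the repressor UMIs in WT and 69.2% in KO, while in the erythroblast gate Mxd3 made up 44.0% and 42.01% and Mxd4 4.29% and 5%. In the stem gate Mxd4 led with 44.3% and 43.0%, and in the late erythroid gate Mxi1 with 53.8% and 54.5%.

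**Figure D4:**
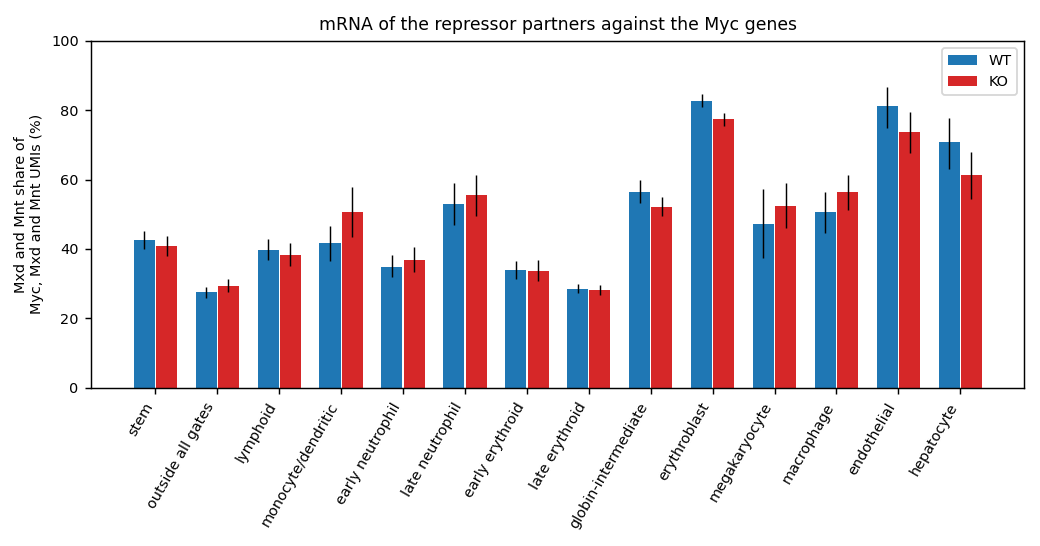
Share of Mxd1, Mxd3, Mxd4, Mxi1 and Mnt in the UMIs of these genes, Myc, Mycn and Mycl (y axis, percent) by gate (x axis). Bars are the WT (blue) and KO (red) libraries with exact 95% binomial intervals; the share is 82.8% in WT and 77.4% in KO in the erythroblast gate and under 29% in the late erythroid gate.

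In the stem gate, Mycn and Mxd4 also differed with the transcripts of G2M genes, though no tested member did so 2-fold in both libraries. Cells were thinned to 5000 UMIs and divided by their UMIs of 12 G2M genes, none of them a member, into a low range (at most 4) and a high range (at least 15). In the stem gate, 209 WT and 176 KO cells were low and 117 WT and 122 KO cells were high. Mxd3 had 0 UMIs in the low cells of both libraries, and 27 UMIs (11.6 CPM) in the high cells of WT and 9 UMIs (4.89 CPM) in those of KO. Against the level that 3 UMIs would give in the low cells, it was 10.2-fold higher in WT and 2.50-fold higher in KO. The exact intervals of the log2 difference began at 2.95 in WT and at 0.72 in KO and had no upper end. With 36 UMIs in all, Mxd3 was below the 100 UMIs asked of a tested gene, and these values rest on few counts. Of the 7 members tested, 0 were at least 2-fold higher and 0 were at least 2-fold lower in both libraries, beside 2.88% and 0.405% of all 7161 genes tested. Mycn had lower levels in the high cells, with 127 and 71.3 CPM in low and high cells of WT and 116 and 81.5 CPM in KO. The log2 difference was -0.83 (-1.11 to -0.56) in WT and -0.51 (-0.83 to -0.19) in KO. Mxd4 had 147 and 89 UMIs in low and high cells of WT and 92 and 51 UMIs in KO, with log2 differences of -0.55 (-0.94 to -0.16) and -1.11 (-1.64 to -0.61). Myc differed by log2 -0.27 (-0.73 to 0.19) and -0.15 (-0.62 to 0.32), with both intervals including 0. Among cells outside all gates, Mycn was also lower in the high cells, with log2 -0.84 in WT and -0.54 in KO. When 12 S-phase genes divided the stem gate instead, the intervals of Mycn included 0 (log2 -0.06 and -0.22), and Mxd3 had 15 UMIs in low and 8 UMIs in high cells of WT and 1 and 5 UMIs in KO.

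The comparison of KO with WT asked whether the network responded to the loss of IκBα. Of 140 pairs of member and group of cells, 78 had at least 100 UMIs over both libraries, and their log2 KO/WT lay between -0.72 and 0.41. Past a limit of 0.5, 0 pairs were higher and 2 were lower. Myc had 187 UMIs (70.5 CPM) in WT and 82 UMIs (48.7 CPM) in KO in the monocyte and dendritic gate, a log2 KO/WT of -0.54 (-0.93 to -0.15), and 2.62% of all genes were lower there. The gate held 72 WT and 70 KO cells. Mnt had 88 UMIs (11.5 CPM) and 36 UMIs (6.97 CPM) in the early erythroid gate, a log2 KO/WT of -0.72 (-1.33 to -0.15), with 2.17% of all genes lower. With classes taken from clusters, Mnt was at -0.20 there. Keeping the cells with Xist and no Y-linked UMIs gave -0.61 for Myc and -0.76 for Mnt.

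Over all genes, 1.13% were past the limit upwards in the early erythroid gate and 2.39% in the monocyte and dendritic gate. Where no member passed the limit, the shares of all genes higher and lower were 2.37% and 1.23% outside all gates (8 members tested), 2.27% and 1.37% in the lymphoid gate (7 tested), 1.7% and 1.79% in the early neutrophil gate (5 tested) and 3.11% and 1.69% in the late neutrophil gate (5 tested). In the late erythroid gate (9 tested) they were 1.51% and 1.11%, in the globin-intermediate gate (8 tested) 5.54% and 0.766%, and in the erythroblast gate (9 tested) 3.15% and 1.1%. The small gates had 4.4% and 4.05% (megakaryocyte, 2 tested), 6.73% and 2.37% (macrophage, 5 tested), 4.05% and 4.45% (endothelial, 1 tested) and 3.93% and 1.87% (hepatocyte, 2 tested). With shares this low, 2 of 78 pairs is near the background.

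The intervals of 8 of the 78 pairs did not include 0. Over all genes and gates, 18% of 88603 pairs had such intervals, so that the members were not above the background by this measure. Of the 8 pairs, 2 were those past the limit, and the other 6 follow. In the stem gate the levels of Myc were 36.4 (WT) and 46.5 CPM (KO; log2 0.35, 0.09 to 0.62), where 1.29% of all genes were past the limit upwards and 1.88% downwards. Mycn was alike there, at 92.8 and 89.3 CPM (log2 -0.06). The Mycn share was thus 6.05 points (1.31 to 10.8) lower in KO. The megakaryocyte gate, with 20 WT and 56 KO cells, had a larger difference from fewer counts. Mycn had 34 of 54 UMIs there in WT and 45 of 114 in KO, a share of 63.0% (48.7 to 75.7) against 39.5% (30.4 to 49.1), or 23.5 points (6.34 to 39.1) lower in KO. The log2 KO/WT of Mycn there was -0.93 (-1.60 to -0.24), with fewer than the 100 UMIs asked of a tested pair. By stem score, the log2 KO/WT of Myc was 0.02 (-0.34 to 0.39) in the lowest range and 0.76 (0.21 to 1.31), 0.50 (-0.21 to 1.20) and 0.54 (-0.66 to 1.71) in the others. With classes from clusters the stem value of Myc was 0.02, and the Mycn share was 58.1% in WT and 57.98% in KO, so that this difference depended on how the cells were chosen. The stem gate also differed in G2M transcripts, with medians of 5 UMIs in WT and 7 UMIs in KO in thinned cells. Whether this bears on the KO/WT values of the stem gate was not tested. Myc was also higher in KO in the globin-intermediate gate (39.8 and 49.3 CPM, log2 0.31, 0.12 to 0.50) and in the erythroblast gate (15.5 and 20.4 CPM, log2 0.40, 0.16 to 0.65). Scrublet called 3.90% of WT and 5.80% of KO cells, and without them the erythroblast value was -0.03. In the erythroblast gate Mxd3 was lower in KO at log2 -0.20 (-0.36 to -0.03) and Mxi1 at -0.22 (-0.42 to -0.01). Mycn outside all gates was at -0.18 (-0.34 to -0.02). For Max and Mlx, no interval excluded 0.

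**Figure D5:**
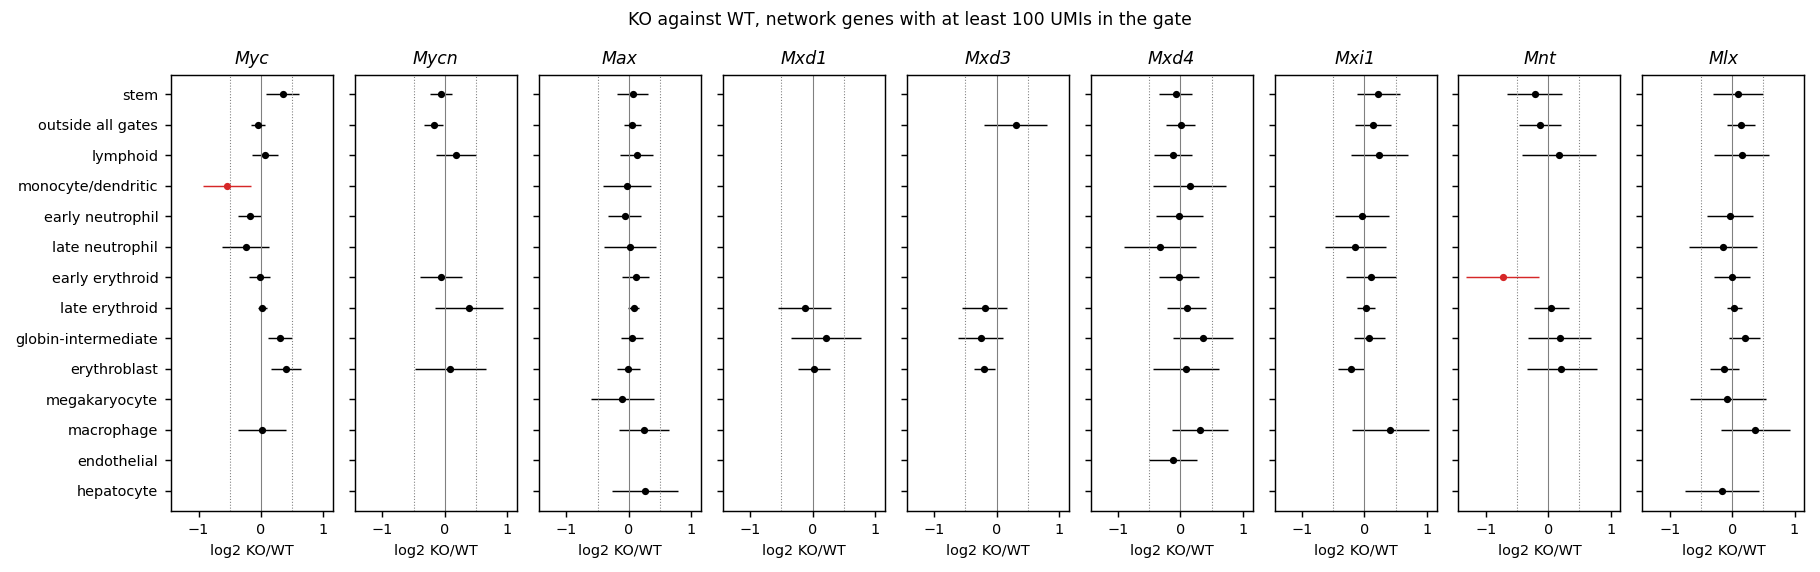
Log2 KO/WT (x axes) of each network gene with at least 100 UMIs in a group of cells (y axis), with exact conditional 95% intervals. Dotted lines mark a log2 of 0.5 either way and red points lie past it; these are Myc in the monocyte and dendritic gate and Mnt in the early erythroid gate, both lower in KO.

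Genes that work with the network were compared in the stem gate by 5 lists with 71 genes. Of the 10 genes for partners that MYC recruits to chromatin, 0 were past the limit in either direction, with a median log2 KO/WT of -0.05 against 0.01 over all 8073 genes. Ruvbl2, a helicase gene, was highest (0.12, -0.05 to 0.28), and Wdr5, which encodes a chromatin scaffold that binds MYC, lowest (-0.16, -0.45 to 0.14). Among 8 tested genes for MYC stability, 0 were past the limit. Aurka, whose kinase protects MYCN from degradation, had 49.8 CPM (WT) and 60.7 CPM (KO), a difference above the counting error (log2 0.29, 0.06 to 0.52), and Trim32, a ubiquitin ligase gene, was lowest at -0.34 (-0.87 to 0.18).

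In the corepressor list, 1 of 12 genes was lower and 0 were higher, beside 1.88% and 1.29% of all genes. This was Hdac1, a histone deacetylase gene of the SIN3 complex, with 931 UMIs (135 CPM) in WT and 395 UMIs (81.3 CPM) in KO, a log2 KO/WT of -0.73 (-0.90 to -0.56). Hdac1 had fewer CPM in KO than in WT in all 14 groups of cells, ranging in WT from 79.6 CPM (late neutrophil) to 183 CPM (endothelial) and in KO from 58.2 CPM (macrophage) to 102 CPM (endothelial). Of the 71 genes of the 5 lists, Sap18, another gene of the SIN3 complex, was the only other one with fewer CPM in KO in every group. It had 132 and 111 CPM in the stem gate (log2 -0.25, -0.40 to -0.09), and it is named after its values were seen. How many of all genes had fewer CPM in KO in every group was not counted. The pattern is therefore not given as a result about SIN3 genes. A near-identical processed copy of Hdac1 (Gm10093) lies elsewhere in the genome, so that its counts are uncertain. Sap30, another SIN3 gene, was the highest of the list at 0.10 (-0.20 to 0.40). In the Mga and MONDO list, 1 of 8 tested genes was higher (1.29% of all genes), namely Mlxip, which encodes a MONDO partner of MLX, with 64 and 65 UMIs (log2 0.53, 0.01 to 1.05). Zbtb17, which encodes the MYC partner MIZ1, was lowest at -0.30 (-0.82 to 0.20). Of 30 ribosome and growth genes known as MYC targets, 0 were past the limit and the median was 0.08. Mrto4, a ribosome assembly gene, was highest (0.28, 0.12 to 0.43), and Nop16, a nucleolar gene, lowest (-0.08, -0.27 to 0.11).

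In maturing red cells the place of the target list among all genes depended on the gate it was compared with. Against the early erythroid gate, 20 of 30 target genes were lower and 1 was higher in the erythroblast gate, where 36.1% of all genes were lower and 5.82% higher. The list medians were log2 -1.27 in WT and -1.23 in KO beside -0.81 and -0.76 over all genes. Against the stem gate, 7 of 30 were lower and 1 was higher, where 42.4% of all genes were lower and 6.16% higher. There the medians of -0.72 and -0.78 lay above those of all genes, -0.92 and -0.87. In the late neutrophil gate against the early one, 0 of 30 were lower and 0 higher, where 0.76% of all genes were lower and 1.22% higher, with medians of -0.39 and -0.38 beside -0.10 and -0.10. In the erythroblast gate against the early erythroid gate, 7 of 8 tested Mga and MONDO genes were lower (36.1% of all genes), with medians of -1.66 and -1.26 beside -0.81 and -0.76 over all genes. Of the other lists, 4 of 10 MYC partner genes, 1 of 8 stability genes and 3 of 12 corepressor genes were lower in that comparison, and 0 of each were higher. Their medians were -1.27 and -0.96, -0.40 and -0.31, and -0.75 and -0.66.

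Genes most like a member in their pattern were taken over the 28 points of 14 groups of cells and both libraries, by Pearson's r of log2(CPM + 1), among 5313 genes. The points are not independent, since both libraries share each gate and all genes of a library share its depth. For Mycn they were Dok2 (r = 0.90), Angpt1 (0.89) and Msi2 (0.86), and for Myc Suds3, Mdn1 and Eif4b (0.88 each). Suds3, a SIN3 complex gene, ranged only from 39.2 to 80.0 CPM, whereas Mdn1, a ribosome assembly gene, ranged from 9.28 to 62.6 CPM. For Mxd3 they were Cdc25b (0.86), Arf5 (0.86) and Ccnd3 (0.83), and for Mxd1 Slc2a1 (0.85), Cdc25b (0.80) and Hist1h1c (0.80), all 5 of them highest in the erythroblast gate. For Mxd4 they were Tmem59, Pecam1 and Pfdn5 (0.94 each), all highest in the endothelial gate. For Mxi1 the values were lower, with Ptgr1 (0.77), Tmx4 (0.72) and 4930523C07Rik (0.71).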

How the data were processed

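The authors made 3′ single-cell libraries (10x Genomics), aligned the reads to GRCm38 with Cell Ranger 6.0.0 and deposited the unnormalised UMI counts, one matrix for each library. The annotation release is not given in the sources used here. Cells were required to have 1000 or more genes and no more than 20% mitochondrial UMIs (3458 of 3840 WT and 4417 of 4928 KO barcodes), and doublets were kept. Gates used 71 marker genes in 12 lists. The cuts, in marker UMIs per 10000, were 50 for hepatocyte and megakaryocyte, 20 for endothelial, 10 for macrophage and late neutrophil (taken first, in the order hepatocyte, macrophage, endothelial, megakaryocyte, late neutrophil), and then, by the highest score relative to its cut, 3 for stem and lymphoid, 30 for early neutrophil, 5 for monocyte and dendritic and late erythroid, and 10 for early erythroid. Late erythroid cells with an erythroblast score from 50 were called globin-intermediate, and cells not in the gates taken first, with a late erythroid score from 5 and an erythroblast score from 500, erythroblasts. The members, lists and comparisons were chosen with earlier results of these data known.

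UMIs were summed per gate and library, with exact Poisson, binomial and conditional (Clopper-Pearson) intervals at 95% and a floor of 3 UMIs for a count of 0. Calls needed 100 UMIs over the groups compared and a log2 of 0.5 between genotypes, or 2-fold in both libraries between gates. PCR copies were removed by the UMIs, and the intervals cover counting error only. All 10 members were named in every gate, with the 3 genes most like each of 6 members (mean of at least 20 CPM, no gate markers) and, per list, the top and bottom gene by log2 KO/WT in the stem gate. On stem gate counts simulated as Poisson draws over 8073 genes, the intervals held the true value for 95.0% of 200 changed and 95.9% of unchanged genes. The intervals assume this same model, and no variation among cells, embryos or libraries was simulated. The simulation thus checks the calculation and not the fit of the intervals to these data. Clusters for the alternative classes were made with scanpy 1.11.5 (2000 variable genes, 20 principal components, 20 neighbours, Leiden algorithm, resolution 1). Calculations used numpy 2.4.6, scipy 1.17.1 and pandas 2.3.3 in Python 3.11.15. In all, 13 alternatives were tried, 1 of them chosen after seeing the data (leaving out the cluster of KO cells only).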

Additional observations from a re-analysis of the deposited data

Results flagged for a closer look

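Myc was the member whose KO/WT difference went in opposite directions between groups of cells with intervals that did not include 0. Its log2 KO/WT was -0.54 (-0.93 to -0.15) in the monocyte and dendritic gate, but 0.35 (0.09 to 0.62) in the stem gate, 0.31 (0.12 to 0.50) in the globin-intermediate gate and 0.40 (0.16 to 0.65) in the erythroblast gate. With 1 library per genotype, the difference between the gates was not tested. The monocyte and dendritic value lay between -0.67 and -0.50 over 10 alternatives. The stem value went to 0.02 with classes from clusters, and the erythroblast value went to -0.03 without the doublets that Scrublet called.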

How the results depend on the processing

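No paired analysis was possible because WT and KO were each sequenced as 1 library. The causes of the changes below were not tested. The Mycn share of the stem gate, 71.8% in WT and 65.8% in KO, was 79.7% and 72.1% with cuts 1.5 times higher, 65.2% and 56.8% when gating used cells thinned to 5000 UMIs, and 58.1% and 57.98% with classes from clusters. With CPM taken per cell and then averaged it was 69.4% in KO. Scaling common to all cells of a gate cannot change a share within it, but averaging over cells gives each cell the same weight. The count of pairs past the KO/WT limit, 2, was 4 with gating on thinned cells, 4 with clusters, 8 with the mean per cell and 14 when 20 UMIs sufficed. Against the stem gate, 1 member in place of 2 was higher in the erythroblast gate with 2000 genes per cell or with cuts 1.5 times higher. The count of lower members there was 3 or 4 over 11 alternatives. Against the early erythroid gate, 2 or 3 members were higher and 3 or 4 lower in the erythroblast gate. In the late against the early neutrophil gate, 1 member in place of 0 was higher with 2000 genes per cell, without Scrublet calls, with median-of-ratios scaling, with the mean per cell, in cells with Xist but no Y-linked UMIs, and without the cluster of KO cells only. Against the stem gate, the late neutrophil gate had 1 higher member in place of 0 without Scrublet calls, with median-of-ratios scaling, with the mean per cell and in the cells with Xist. It had 4 higher and 1 lower with UMIs per cell, and 1 lower in place of 2 with gating on thinned cells. Classes from clusters gave no late neutrophil class. Depth limits the members with few UMIs: Mycl had 44 UMIs in WT and 37 in KO.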
